A study of Homo sapiens with 11 samples.

Results

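RMRP, RPPH1, RN7SL1, RN7SL2 and RNU2-2P encode short structural RNAs that are not translated. They were followed here through 11 RNA-seq libraries of a renal cancer cell line treated with a drug combination. These 5 of the 26485 gene symbols in the count tables were chosen by their counts in the 2 h libraries, above all in CTRL library 1, so that their values at 2 h are given as a description, with no test. The cells were Caki-1-SR, a sunitinib-resistant subline (clone 1) of Caki-1, a human line from a skin metastasis of clear cell renal cell carcinoma (ccRCC). Every culture was kept in 1 µM of sunitinib, which blocks receptor tyrosine kinases, and the use of a single clone limits how far the values stand for ccRCC cells. ODC cells received Rapta-C (2 µM, ruthenium-based), erlotinib (1 µM, against the EGFR kinase), metformin (1 µM, used in diabetes) and parthenolide (5 µM, from a plant). CTRL cells received none of the 4 drugs. At 2 h there were 2 CTRL libraries (numbers 1 and 2) and 3 ODC libraries (3, 4 and 5). At 24 h there were 3 CTRL libraries (1, 3 and 5) and 3 ODC libraries (2, 4 and 6). By the sample titles the 2 h and 24 h libraries belong to different months, and the effects of time and month cannot be told apart.

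RMRP is the RNA subunit of RNase MRP, which takes part in the processing of ribosomal RNA, and RPPH1 is the RNA subunit of RNase P, which trims the 5′ ends of transfer RNA precursors. RN7SL1 and RN7SL2 encode the RNA scaffold of the signal recognition particle (SRP), which brings ribosomes that make secreted and membrane proteins to the endoplasmic reticulum. RNU2-2P carries a U2 small nuclear RNA, the part of the spliceosome that pairs with the intron branch point. None of these RNAs carries the poly(A) tail of an mRNA, and the libraries were made with a stranded mRNA kit, which selects for that tail.

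The reference sequences show what a poly(A) selection and a read counter meet in these genes. Sequences and positions are from GENCODE release 44 on hg38. RMRP lies on the minus strand at chr9:35657754-35658017, is 264 bases long, and has a longest run of 3 A. RPPH1 lies on the minus strand at chr14:20343075-20343407, is 333 bases long, and has a longest run of 2 A. Its first 300 bases are given. Both are annotated as ribozymes, and in both capitals mark the longest runs of A.

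RMRP: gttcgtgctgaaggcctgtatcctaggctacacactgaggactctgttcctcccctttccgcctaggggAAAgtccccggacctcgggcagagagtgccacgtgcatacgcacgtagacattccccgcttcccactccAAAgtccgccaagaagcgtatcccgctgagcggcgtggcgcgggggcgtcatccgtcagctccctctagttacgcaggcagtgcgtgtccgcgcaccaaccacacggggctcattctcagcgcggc
RPPH1: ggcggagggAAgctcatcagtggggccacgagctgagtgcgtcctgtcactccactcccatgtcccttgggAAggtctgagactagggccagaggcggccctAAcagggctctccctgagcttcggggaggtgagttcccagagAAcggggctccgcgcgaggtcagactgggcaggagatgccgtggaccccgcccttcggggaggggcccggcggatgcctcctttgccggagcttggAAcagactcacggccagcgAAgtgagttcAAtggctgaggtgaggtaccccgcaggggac

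RN7SL1 (299 bases) and RN7SL2 (300 bases), both on chromosome 14 and on opposite strands, are close copies. Over their first 299 bases they were identical at 295 (98.7%) and differed at 4. A read of 100 bases can miss all 4 differences. Of the 200 windows of 100 bases in RN7SL1, 106 (53%) also occur in RN7SL2. Only 51 (25.5%) occur once in the genome, against 36 of 201 (17.9%) in RN7SL2, 165 of 165 in RMRP, 234 of 234 in RPPH1 and 84 of 92 in RNU2-2P. How reads that fit several places were counted is not given in the sources used here, so the division of counts between RN7SL1 and RN7SL2 is uncertain. RNU2-2P (minus strand, chr11:62841619-62841809, 191 bases) overlaps WDR74 on the same strand, and its stretch with the branch-point recognition bases, in capitals, is shown.

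RNU2-2P: ctaagatcaagtGTAGTAtctgttcttatc

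WDR74 itself had 1129 counts in CTRL library 1 at 2 h against 1382 to 1775 in the other 4 libraries. WDR74 as a whole was thus not high in that library. How reads in the shared stretch were assigned is not given in the sources used here. The counts therefore do not show whether that stretch of WDR74 was high. RPPH1 overlaps another gene on the same strand (ENSG00000259001), and so does RN7SL2 (ENSG00000282885). RPS29 lies on the strand opposite RN7SL1.

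At 2 h all 5 RNAs were highest in CTRL library 1, second in CTRL library 2 and lowest in the 3 ODC libraries. RMRP had 313 counts in CTRL library 1 and 45 in CTRL library 2, and 13, 22 and 9 in ODC libraries 3, 4 and 5. RPPH1 had 153 and 19 counts in CTRL, and 4, 11 and 6 in ODC. Library 1 stood well apart from library 2 in both of these RNase subunits, although the group is the same. The SRP RNAs behaved alike. RN7SL1 had 468 and 58 counts in CTRL, and 26, 35 and 35 in ODC. RN7SL2 had 541 and 75 counts in CTRL, and 21, 48 and 30 in ODC. RNU2-2P was the scarcest, with 65 and 12 counts in CTRL, and 3, 4 and 0 in ODC. The detection floor used here, 3 counts, was worth 0.0964 to 0.116 CPM (reads of a gene scaled to a common library total) at 2 h, so the ODC values of RNU2-2P were at or near the floor. Intervals and floors cover counting error only.

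**Figure D1:**
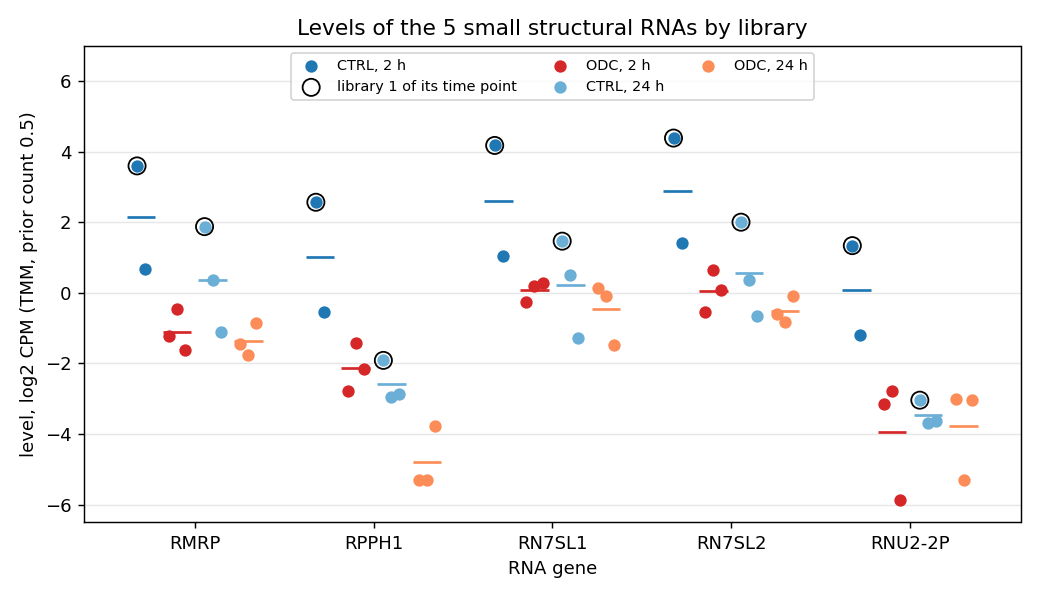
Level of each RNA in each library, as log2 CPM (TMM-scaled, prior count of 0.5), with a bar at the mean of each group and a ring around library 1 of each time point. The ringed 2 h library lies above every other library in all 5 RNAs, on which they were chosen. The ringed 24 h library is highest in 4 of 5, of which RPPH1 had only 5 counts there. The share of all genes highest in that 24 h library was not computed.

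The excess of CTRL library 1 was similar in size across the 5 RNAs. On the log2 CPM scale it exceeded the mean of the other 4 libraries by 4.25 in RMRP, 4.30 in RPPH1, 3.86 in RN7SL1, 3.99 in RN7SL2 and 4.58 in RNU2-2P. The other 4 libraries had a standard deviation (SD) of 0.54 in RN7SL1 to 1.94 in RNU2-2P on the same scale. In linear CPM, library 1 was 13.9-fold (RN7SL1) to 17.4-fold (RPPH1) above the mean of the others, and 5.94-fold (RNU2-2P) to 8.85-fold (RN7SL1) above the next highest library. The 5 RNAs took ranks 2 to 6 of 13332 genes by this excess, a pattern on which they were chosen. In all, 301 genes (2.26%) were over 2-fold higher in library 1 than in the mean of the others, against 51 to 102 genes for each of the other 2 h libraries. Together, and scaled to the raw library total in the same way, the 5 RNAs made up 59.7 CPM in CTRL library 1, 7.37 in CTRL library 2, and 2.16, 3.86 and 2.74 in the ODC libraries.

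Next to them by the same measure stood COL1A2, a fibrillar collagen gene, at rank 1 (8.47), BGN, the proteoglycan biglycan, at rank 7 (3.70), and RN7SK, another short untailed RNA, at rank 8 (3.49). RN7SK is the scaffold that holds the elongation factor P-TEFb inactive. It had 512 counts in CTRL library 1 and 61 in CTRL library 2, and 43, 54 and 52 in the ODC libraries. RN7SK thus lay just outside the 5 RNAs, and RN7SL1 (3.86) just inside.

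A number of fibroblast and matrix genes were also high in CTRL library 1 at 2 h. From a list of 16 such genes, written after COL1A2 and BGN were seen to be high, 12 were highest in library 1. Of the 9 that passed the filter on low counts, 5 were. COL1A2 and BGN, which prompted the list, passed that filter only through their counts in library 1. These 9 genes can therefore not be set against the share of all genes highest in library 1, which was 27.7%. COL1A2 had 971 counts against 0 to 11 in the other 2 h libraries, COL3A1 1081 against 0 to 6, and DCN, which encodes decorin, 73 against 0 to 3. LUM had 65 counts against 0 to 4, and POSTN and THY1 had 22 and 28 against 0. SPARC (log2 excess -0.05), PDGFRB (-0.08), TWIST1 (0.02) and COL5A2 (0.27) were not highest there. None of the 16 genes was at 0 in library 1, against 4 to 6 in the other 2 h libraries. Their summed level was 1995 CPM in library 1 and 1707 to 2206 CPM in the others, and did not stand apart. Of the 51569 summed counts in library 1, SPARC gave 41911 and COL1A1 6140, and both were abundant in all 2 h libraries. The sum thus follows SPARC and COL1A1 and says little about the other genes of the list. Library 1 also had 16840 genes with a count, against 15761 to 15973. The renal epithelial marker PAX8 was present throughout (at least 437 CPM), and the leukocyte gene PTPRC had at most 7 counts in any library. The endothelial genes were low but highest in library 1 at 2 h, where CDH5 had 4 counts against 0 in the other 2 h libraries and PECAM1 9 against 2 to 4. The part of these genes in the excess of the small RNAs at 2 h was not tested.

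The difference between ODC and CTRL at 2 h in these RNAs depended on which CTRL library was used. The log2 difference, ODC minus CTRL, was -3.23 in RMRP, -3.14 in RPPH1, -2.53 in RN7SL1, -2.84 in RN7SL2 and -4.01 in RNU2-2P. Without CTRL library 1 it was -1.78, -1.58, -0.96, -1.35 and -2.75. Both CTRL libraries were above all 3 ODC libraries in 5 of 5 RNAs, which the choice of the RNAs used, and in 7.42% of all genes. The values of RNU2-2P depend on the prior count, since its ODC mean of 0.0749 CPM lay under the floor. In linear CPM, CTRL library 2 alone was 1.94-fold (RN7SL1) to 3.32-fold (RMRP) above the ODC mean in the other 4 RNAs. With 1 CTRL library left, there was no replicate to set this against.

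Most other small RNAs and short transcripts were higher in CTRL library 1 at 2 h by less, with RN7SK, at 3.49, the exception nearest to the 5 RNAs. Of 106 other small RNAs that passed the filter on low counts, 37 (34.9%) were over 2-fold higher in library 1, and their median log2 excess was 0.78, against 0.016 over all genes. The 62 box C/D small nucleolar RNAs (snoRNAs), guides of RNA methylation, had a median of 0.78. The 37 box H/ACA snoRNAs, guides of pseudouridylation, had a median of 0.79. Among the 6 most abundant snoRNAs, the log2 excess was 1.10 in SNORD80, 0.61 in SNORA70, 0.87 in SNORD47, 0.27 in SNORD104, 0.51 in SNORD22 and 1.64 in SNORA73A. SNORD80 had 298 counts in library 1 against 111 to 240 in the others, and SNORA73A had 137 against 42 to 77. Most snoRNAs are cut from introns, and like the 5 RNAs they carry no poly(A) tail. The 19 histone genes tested, of a class whose mRNAs mostly lack the tail, had a median of 0.71 and ran from -0.43 to 2.32. Whether the mRNAs of these 19 genes carry a tail was not tested. The 82 ribosomal protein genes, short but with a tail, had a median of 0.19 with none over 2-fold.

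**Figure D2:**
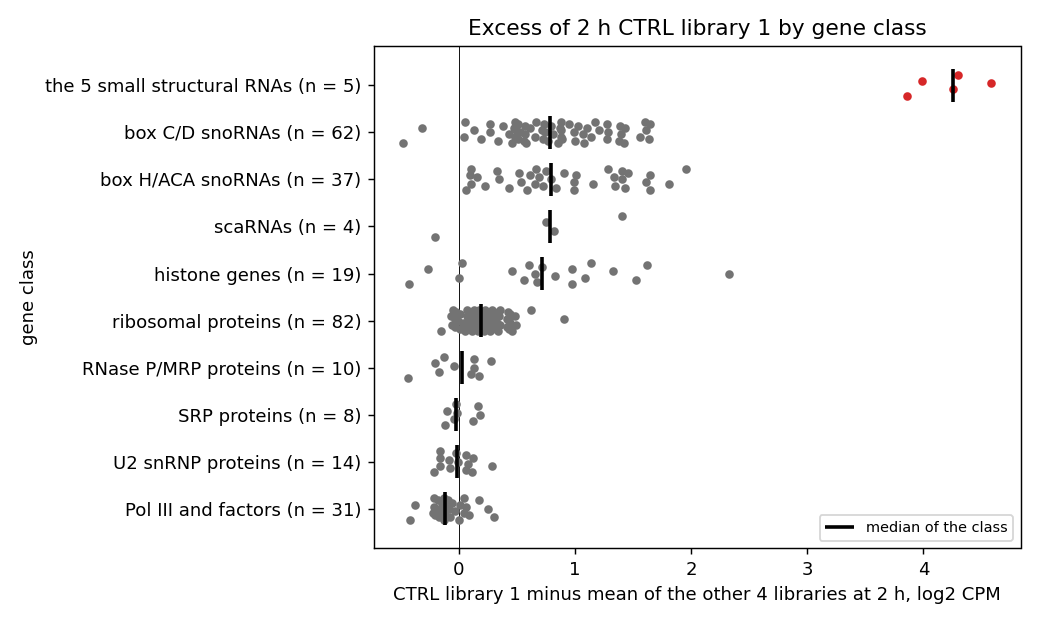
Excess of CTRL library 1 over the mean of the other 4 libraries at 2 h on the log2 CPM scale, with 1 point per gene, grouped by class, and a black bar at the median of each class. The 5 small structural RNAs lie between 3.86 and 4.58, while the medians of the snoRNA classes lie at 0.78 and 0.79.

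The excess was larger in genes with short transcripts, but the snoRNAs and other small RNAs above were not taken out of this comparison. The length group under 300 bases held 125 genes, so its median is not separate from the values of those small RNAs. Genes whose longest annotated transcript is under 300 bases had a median log2 excess of 0.66 without the 5 RNAs, those of 300 to 500 bases 0.31, and those over 4000 bases -0.0039. The protein partners of the 5 RNAs did not share it. The RNase P and MRP proteins (10 genes), the SRP proteins and receptor (8), the U2 snRNP proteins (14) and RNA polymerase III with its factors (31) had median log2 excesses of 0.030, -0.021, -0.015 and -0.12, with none over 2-fold. Between RNAs, the comparison of levels depends on the scale used. In CPM per kilobase, CTRL library 1 at 2 h had 69.8 for RN7SL2, 60.5 for RN7SL1, 45.9 for RMRP, 17.8 for RPPH1 and 13.2 for RNU2-2P. Levels were also scaled to the number of windows that occur once in the genome, in relative units. The same library then had 58.1 for RN7SL2, 35.5 for RN7SL1, 7.34 for RMRP, 2.99 for RNU2-2P and 2.53 for RPPH1. RNU2-2P thus stood above RPPH1 on that scale and below it per kilobase. How reads that fit several places were counted is not known, so neither scale is settled.

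The RNAs were chosen above all by their 2 h counts, but with earlier results of these data known. The 24 h values are thus not wholly separate from that choice. CTRL library 1 was the highest library in 4 of the 5, of which RPPH1 had too few counts to pass the filter. The share of all genes highest in that library at 24 h was not computed. RMRP had 76, 24 and 8 counts in CTRL libraries 1, 3 and 5, and 7, 5 and 11 in ODC libraries 2, 4 and 6. RN7SL1 had 57, 27 and 7 counts in CTRL, and 22, 17 and 7 in ODC. In both, 2 of the CTRL libraries were above all ODC libraries and the third was not, so the groups overlapped. RN7SL2 had 83, 24 and 11 counts in CTRL, and 13, 10 and 19 in ODC, and its groups overlapped in the same way. RPPH1 had 5, 2 and 2 counts in CTRL, and 0, 0 and 1 in ODC. RNU2-2P had 2, 1 and 1 counts in CTRL, and 2, 0 and 2 in ODC. The last 2 did not pass the filter on low counts, so the main test gave no fold for them. The floor of 3 counts was worth 0.144 to 0.169 CPM at 24 h.

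None of the 3 RNAs tested passed the test of ODC against CTRL at 24 h. RMRP had 1.78 ± 1.67 CPM in CTRL and 0.381 ± 0.133 CPM in ODC (SD, n = 3 each). Its log2 fold change was -2.21 with a standard error of 0.74 and an adjusted p = 0.277 (quasi-likelihood test of edgeR, adjusted by Benjamini-Hochberg over 12689 genes). RN7SL2 had 1.95 ± 1.79 CPM in CTRL and 0.697 ± 0.193 CPM in ODC, which is -1.48 on the log2 scale with a standard error of 0.65 (adjusted p = 0.418, same edgeR test). RN7SL1 had 1.51 ± 1.18 CPM and 0.779 ± 0.392 CPM, which is -0.97 on the log2 scale with a standard error of 0.66 (adjusted p = 0.616, same edgeR test). In this comparison 24 genes (0.189%) had an adjusted p under 0.05. At an unadjusted p under 0.05 in the same test, 1 of the 3 RNAs (RMRP) was lower in ODC, as were 5.04% of all genes tested. DESeq2 and edgeR's likelihood ratio test called none of the 3 either, with an adjusted p for RMRP of 0.0869 and 0.0674. The labels do not say whether libraries came from separate cultures, so p-values measure only the spread between these libraries, and in bulk RNA fewer cells of a type and less RNA per cell cannot be told apart.

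The difference at 24 h was smallest with CTRL library 1 left out. Without it the log2 fold change was -1.15 in RMRP, -0.42 in RN7SL2 and -0.23 in RN7SL1, with adjusted p of 0.760, 0.968 and 1.00 by edgeR's quasi-likelihood test. With each of the other libraries left out, RMRP stayed between -2.66 and -2.04. The 3 RNAs were among the most variable genes between replicates. Their biological coefficients of variation were 0.542 (RMRP), 0.526 (RN7SL1) and 0.507 (RN7SL2), at the 99.5, 99.4 and 99.2 percentiles of all genes tested, whose median was 0.147. Without CTRL library 1 they were 0.342, 0.445 and 0.282, and without CTRL library 5, the lowest CTRL library in all 3, 0.384, 0.364 and 0.387, so that in RN7SL1 leaving out library 5 lowered the spread more.

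**Figure D3:**
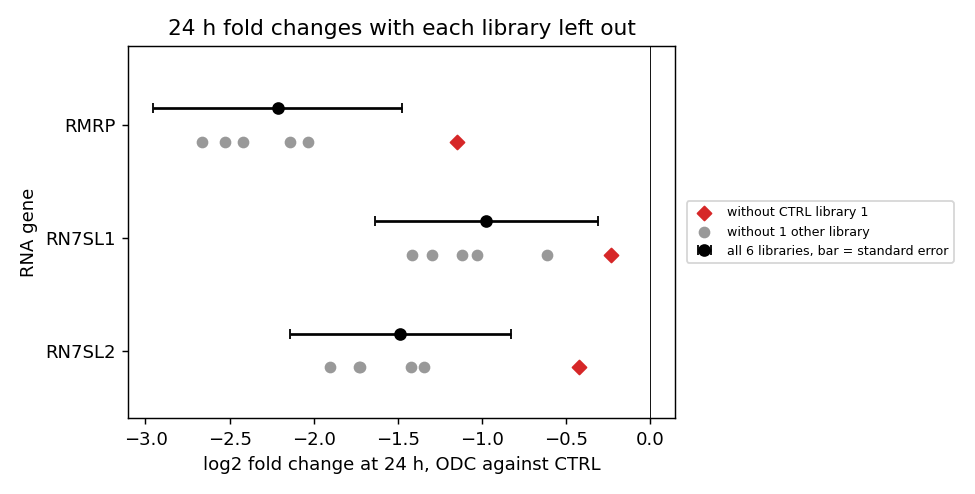
Log2 fold change of ODC against CTRL at 24 h for the 3 RNAs tested, with all 6 libraries (black, bar = standard error) and with each library left out (grey, and red where CTRL library 1 was left out). Leaving out CTRL library 1 moved RMRP from -2.21 to -1.15 and RN7SL2 from -1.48 to -0.42.

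The excess of CTRL library 1 at 24 h was measured in the same way as at 2 h. It was 2.84 in RMRP, 2.37 in RN7SL2 and 1.90 in RN7SL1 on the log2 CPM scale, ranks 1, 5 and 12 of 12689 genes. RN7SK had 66 counts in that library against 9 to 18 in the others, an excess of 2.36 (rank 6). All 3 RNAs were over 2-fold higher there, as were 97 genes in all (0.764%). COL1A2 was at 0 in CTRL library 1 at 24 h and at 0 to 1 in the others, and 9 genes of the fibroblast and matrix list that were high at 2 h had at most 4 counts each in it. The snoRNAs did not share the excess at 24 h, with a median of -0.070 in box C/D and -0.065 in box H/ACA. Of 12603 genes tested at both times, 180 at 2 h and 94 at 24 h were over 2-fold higher in CTRL library 1, and 18 were so at both (10% and 19.1% of each list), among them RMRP, RN7SL1, RN7SL2 and RN7SK. By the labels these libraries have in common the CTRL group and the number 1.

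**Figure D4:**
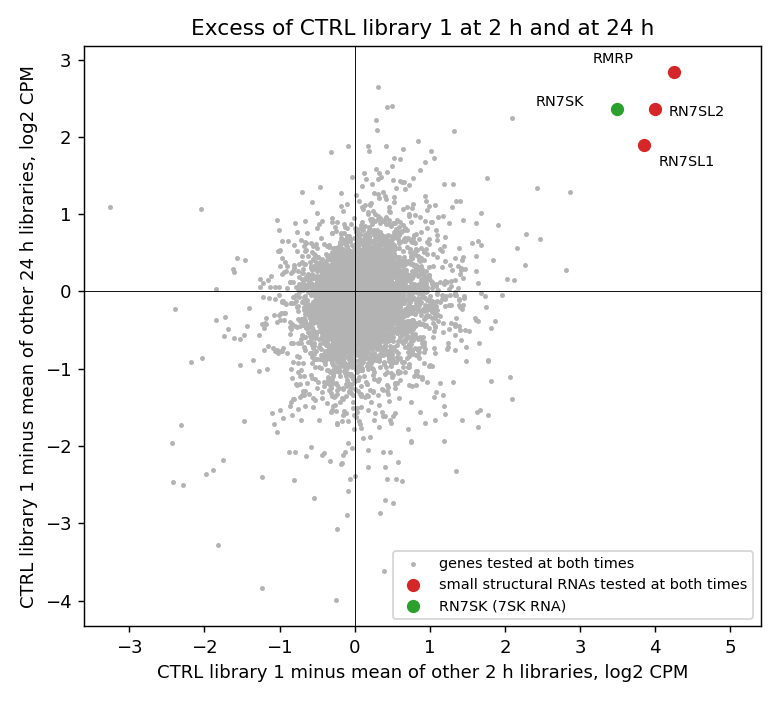
Excess of CTRL library 1 over the mean of the other libraries at 2 h (horizontal) and at 24 h (vertical), on the log2 CPM scale, with 1 grey point per gene tested at both times. RMRP, RN7SL1 and RN7SL2 (red) and RN7SK (green) lie in the upper right, with an excess of 3.49 to 4.25 for the earlier time and 1.90 to 2.84 for the later one.

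The make-up of the 5 RNAs differed between the library 1 of each time point. RMRP took 20.3% of their summed counts at 2 h (95% exact Clopper-Pearson interval 18.3 to 22.4) and 34.1% at 24 h (27.9 to 40.7). RPPH1 took 9.94% (8.49 to 11.5) at 2 h and 2.24% (0.732 to 5.15) at 24 h. At 2 h, libraries 1 and 2 of CTRL had like shares, with RMRP at 20.3% and 21.5% and RPPH1 at 9.94% and 9.09%. Shares are of counts and are not scaled to length.

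Across the 11 libraries, the likeness of the 5 RNAs to each other was lower without the pair of high libraries. Pearson's r between 2 of them, taken on log2 CPM after removing the mean of each time point, ran from 0.642 to 0.978 over 10 pairs, and from 0.0879 to 0.903 over the 9 libraries without CTRL library 1 of each time. The gene most like their mean was RN7SK (r = 0.893 over 11 libraries, 0.376 over 9). After it came PDP2, FEZF1, YAF2, LAMTOR5, LOC389641, CRYGS, MIR4435-2HG, ZNF318 and ITGB1BP2, with r from 0.844 to 0.892. Over the 9 libraries RN7SK had the lowest r of these 10 genes, and ZNF318 the highest (0.806). Of these 10 genes, RN7SK had a log2 excess of CTRL library 1 at 2 h of 3.49, and FEZF1, the next, of 1.29. These values describe libraries that share a few high points.

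Other genes of the same pathways showed no called change with ODC at 24 h. Only 0.189% of all genes tested were called, so 0 called in lists of this size says little about them. Of the 10 RNase P and MRP protein genes tested, 0 were called by edgeR's quasi-likelihood test at an adjusted p under 0.05, and 0 at an unadjusted p under 0.05 (median log2 fold change -0.065). The same counts held for the 8 SRP genes (median -0.023) and the 14 U2 snRNP genes (median -0.050). Of 31 genes of RNA polymerase III and its factors, 0 were called, and at an unadjusted p POLR3GL was higher (0.41) and LARP7, which binds and stabilises the RNA of RN7SK, lower (-0.29). The median over all genes was 0.00088. POP7, a shared protein of RNase P and MRP, had 41.4 ± 2.61 CPM in CTRL and 35.4 ± 2.75 CPM in ODC (adjusted p = 0.453 in the same edgeR test). Of 118 other small RNAs tested, 0 were called and 1 was higher at an unadjusted p under 0.05 (median 0.093). Over all genes tested, 7.20% were higher and 12.2% differed in either direction at an unadjusted p under 0.05.

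MALAT1, NEAT1 and the histone genes tested had fold changes above 0 at 24 h, opposite in sign to the small structural RNAs tested. MALAT1, a nuclear RNA whose 3′ end is a triple helix, had 277 ± 91.4 CPM in CTRL and 430 ± 27.0 CPM in ODC (log2 fold change 0.63, adjusted p = 0.289 in edgeR's quasi-likelihood test). NEAT1, the scaffold of paraspeckles, had 671 ± 115 CPM and 1073 ± 212 CPM (0.68, adjusted p = 0.177, same test). Neither passed the test, and both were lower in CTRL library 1 than in the mean of the other 24 h libraries, by 1.03 and 0.47 on the log2 scale. All 8 histone genes tested, of 73 listed, had a fold change above 0, while 49.9% of all genes tested had one under 0. HIST1H2BD, an H2B histone gene, rose from 2.14 ± 0.393 to 7.44 ± 0.411 CPM (log2 fold change 1.79, adjusted p = 0.0251 in the same edgeR test). Whether the mRNAs of these 8 genes carry a tail was not tested.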

How the data were processed

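RNA of 11 Caki-1-SR libraries was sequenced with a stranded mRNA kit as single-end reads. Per the submitters' notes the authors aligned reads to hg38 with STAR 2.7.0f, counted them per gene with HTSeq 0.9.1 and used edgeR 3.26.8, while the study's methods name other releases of STAR and edgeR. The annotation release is not given in the sources used here. The deposited values are raw counts for 26485 symbols, 25782895 to 31118349 per library at 2 h and 17785229 to 20882856 at 24 h. Here edgeR 4.0.16 (R 4.3.3) was used with TMM factors, filterByExpr (minimum count 10, minimum total 15) and its earlier quasi-likelihood F test, two-sided, with Benjamini-Hochberg adjustment over all genes tested. CPM are TMM-scaled, and log2 CPM used a prior count of 0.5. No replicate pair agreed within sampling noise. Scripts were tested on simulated data. The 5 RNAs and all gene lists were chosen with earlier results of these data known, and the fibroblast list after its leading genes were seen. Genes named beside the 5 RNAs followed a written rule: the most abundant other small RNAs (6 of the 12 it allows), the 10 genes most like them, and per list those of smallest p. COL1A2, BGN, the genes of the fibroblast list and WDR74 were named after their values were seen. Alternatives covered normalization, filter, test, a joint fit, a replicate block and each library left out. Some single genes and sequences are not reported here.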

Additional observations from a re-analysis of the deposited data

How the results depend on the processing

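In every alternative run, the 3 RNAs tested at 24 h kept their direction and none had an adjusted p under 0.05 (RMRP 0.0674 to 0.760, RN7SL2 0.221 to 0.968, RN7SL1 0.151 to 1.00, by edgeR or DESeq2). With adjacent library numbers as a replicate block, a pairing the labels do not state, the log2 fold changes were -2.03, -1.29 and -0.89. With at least 10 counts required in every library, RN7SL2 was the only one of the 3 still tested. The number of genes called at 24 h, 24, became 92 when all genes with any count were tested, 401 with the likelihood ratio test, 378 with DESeq2, 186 in the joint fit and 686 with the replicate block, and 2 to 70 with 1 library left out (2 without CTRL library 1, 3 without ODC library 2, 4 without CTRL library 3, 12 without CTRL library 5, 70 without ODC library 6); the cause was not tested. Against CTRL library 2 alone, the log2 excess of CTRL library 1 at 2 h was 2.92 in RMRP, 3.11 in RPPH1, 3.14 in RN7SL1, 2.98 in RN7SL2 and 2.52 in RNU2-2P, since that library holds the next highest values. Normalization, prior count and the other references left it within 1 SD of the other libraries. Without CTRL library 2, the 2 h differences of ODC from CTRL were -4.69 in RMRP and RPPH1, -4.10 in RN7SL1, -4.33 in RN7SL2 and -5.27 in RNU2-2P. The replicate spread of RN7SL1 at 24 h fell to 0.168 with the block. RPPH1 and RNU2-2P had 0 to 5 counts per library at 24 h, at or near the floor of 3 counts. When all genes with any count were tested, RPPH1 had a log2 fold change of -2.80 with a standard error of 1.14. Its adjusted p was 0.413 by edgeR's quasi-likelihood test. RNU2-2P had -0.044 with a standard error of 1.05 (adjusted p = 0.995, same test).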
